A study of Mus musculus with 6 samples.

Results

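Dio1, Ttr, Thra and Thrb, 4 genes of thyroid hormone handling, were followed in the livers of C57BL/6 mice kept on the HFC diet. They were taken as every probe annotated with one of these symbols alone, which gave 4 probes, 1 for each gene, among 16887 named genes. The set was chosen by symbol, with the low log ratios of Dio1 to the chow pool on these 6 arrays in view. The ratios of the 4 genes to the chow pool are therefore given as descriptions, with no test. Each array compared the liver RNA of a single mouse with a common pool, and the arms were HFC diet with lovastatin (30 mg/kg), HFC diet with fenofibrate (100 mg/kg) and HFC diet alone, with 2 mice each. The pool was liver RNA of 6 chow-fed, vehicle-treated mice of the same strain and age. Mice were 7 weeks old, the diet lasted 12 days, and oral dosing ran once a day from day 5 on, with vehicle in the HFC alone arm per the series' design text. For the lovastatin mice the dose comes from that text and the drug from the sample titles, since their treatment text names fenofibrate.

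The thyroid gland mainly secretes thyroxine (T4), a prohormone that is converted to the active triiodothyronine (T3) by removal of an outer-ring iodine. In liver this step is carried out by Dio1, type 1 iodothyronine deiodinase, a selenoenzyme that also breaks down inactive forms of the hormone. Ttr, transthyretin, is secreted by hepatocytes, carries T4 in plasma and binds the retinol carrier Rbp4. Thra and Thrb encode the nuclear receptors TRα and TRβ, which bind DNA with an RXR partner, and TRβ is the main form in hepatocytes. Dio1 is itself a classical T3-raised gene of the liver, and in mice its promoter is also known to be driven by HNF4A.

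The promoter windows of Dio1 and Thrb are shown because Dio1 was the gene with the low ratio while Thrb encodes the main hepatic receptor. Both come from RefSeq (GRCm38.p6) and run from 250 bases before to 50 after the start site. The Dio1 window lies at chr4:107307119-107307418 on the minus strand, and the Thrb window shown, the upstream of a pair, lies at chr14:17660710-17661009 on the plus strand. Capitals mark matches to the motifs searched.

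Dio1: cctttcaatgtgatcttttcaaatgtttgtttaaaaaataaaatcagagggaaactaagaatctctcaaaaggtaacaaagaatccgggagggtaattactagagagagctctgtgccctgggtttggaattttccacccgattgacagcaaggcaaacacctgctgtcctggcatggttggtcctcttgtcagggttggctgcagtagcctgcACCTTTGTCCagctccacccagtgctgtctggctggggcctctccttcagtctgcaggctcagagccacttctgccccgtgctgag
Thrb: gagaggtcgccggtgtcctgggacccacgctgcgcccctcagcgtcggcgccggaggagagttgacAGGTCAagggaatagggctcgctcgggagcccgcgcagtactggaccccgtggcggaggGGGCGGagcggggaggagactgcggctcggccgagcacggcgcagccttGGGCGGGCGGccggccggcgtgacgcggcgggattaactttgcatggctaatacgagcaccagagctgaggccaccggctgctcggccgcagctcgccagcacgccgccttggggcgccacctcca

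The Dio1 window held a match to GGNCAAAGGT, the core of an HNF4A-type direct repeat with a 1-base spacer, on the reverse strand at bases -36 to -27 from the start site. Positions count the start site as 0. The motif was taken from the window itself after it was seen, with N at a base where such sites vary, and occurred in 147 of 32851 promoter windows (0.447%). The Dio1 window had no match to the receptor hexamer AGGTCA, which 16.3% of all windows held, to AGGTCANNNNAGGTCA (0.0152%), to the GC box GGGCGG (35.7%) or to the GATA-type TGATAA (9.05%). The Thrb window shown held AGGTCA at bases -184 to -179 and 3 GC boxes, 2 of which overlap, and the other Thrb window (chr14:17981394-17981693, plus strand) held 0 matches. All motifs were searched on both strands. A match describes letters in the window and not a used site.

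Values are log ratios of mouse over pool, taken as log2, and a value of -1 means that the mouse had 0.5 times the signal of the pool. The direction is likely rather than stated, since channel 1 of each array is labelled with the mouse. The mouse carried Cy5 on the lovastatin and HFC alone arrays and Cy3 on the fenofibrate arrays, so fenofibrate and dye cannot be told apart. Lovastatin replicate 1 was the widest array, with an SD over all probes of 1.09 against 0.419 to 0.574 on the others. On the second HFC alone array, 50.3% of probes lie in displaced blocks of columns, among them those of Ttr and Thra, while those of Dio1 and Thrb do not. The values deposited there for Ttr (-0.23) and Thra (-0.08) belong to other spots and were left out of the fits. Rotating each block by the number of columns at which it best matched the other arrays, lovastatin replicate 1 left out, gave the value called put back below. Levels could not be compared between genes, since only ratios were used, and the defining markers of liver could be checked for ratios only. In liver as a whole, fewer cells of a type and less RNA per cell cannot be told apart.

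Dio1 was far below the chow pool in every mouse and, on the deposited scale, at almost the same level in all of them. After quantile normalization its mean was -1.85 with lovastatin and -2.69 on HFC alone. In the values as deposited its log2 ratio was -2.25 and -2.21 in the lovastatin mice, -2.37 and -2.44 in the fenofibrate mice, and -2.35 and -2.46 in the mice on HFC alone. The arms lay within 0.25 of each other from the lowest to the highest array, and both lovastatin arrays were the least negative, an order that 6.61% of all features showed. Group means were -2.23 ± 0.0283, -2.41 ± 0.0495 and -2.41 ± 0.0778 (SD, n = 2 each) in the lovastatin, fenofibrate and HFC alone mice. On a linear scale these means are 0.213, 0.189 and 0.189 times the signal of the pool. The fenofibrate arrays, with dyes reversed, gave a value within the range of the HFC alone arrays. Drug and dye changed together there, so an effect of dye on Dio1 was not tested.

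**Figure D1:**
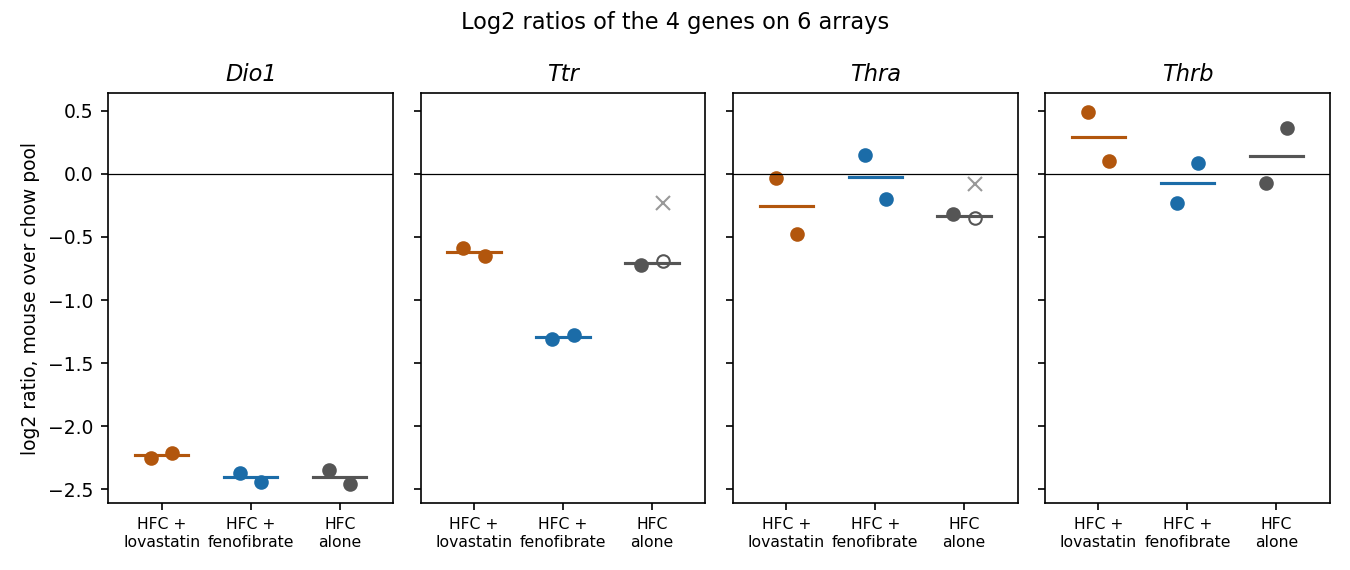
Log2 ratios of mouse over chow pool for Dio1, Ttr, Thra and Thrb, with a point for each array and a bar for the mean of each arm. Open circles are put-back values of the second HFC alone array and crosses the displaced values as deposited. Dio1 lies between -2.46 and -2.21 on all 6 arrays, and Ttr is lowest on the fenofibrate arrays.

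Few genes lay as low as Dio1. On the narrower arrays between 15 and 49 named genes had a lower ratio than Dio1, and on the wide lovastatin replicate 1 array 332 of 16521 did. With displaced blocks put back, 12 of 15752 named genes measured on all arrays were at or below -2 on all 6, as were 0.083% of all features, unnamed probes included. The gap between the highest and the lowest array was 0.25 for Dio1, the smallest of the 12, for which the median gap was 0.86. Next came Msmo1, a sterol pathway enzyme, with a gap of 0.57, and the widest was Sult3a1, a sulfotransferase, with 2.84. Across all 15752 genes the median gap was 0.99. These gaps are descriptions of genes picked for their low values.

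Of the 10 genes whose ratios lay nearest to those of Dio1, 5 encode enzymes of cholesterol or acetyl-CoA synthesis and the other 5 act elsewhere. Likeness was the root mean square difference of log2 ratios from Dio1 over 6 arrays, with blocks put back. Acss2, a cytosolic acetyl-CoA synthetase, was nearest (0.259), followed by Sc5d (0.27) and Fdft1 (0.31), enzymes of cholesterol synthesis, and Enho (0.325), which encodes the secreted peptide adropin. Pmvk, phosphomevalonate kinase (0.35), and Hsd17b7, which also acts in cholesterol synthesis (0.407), came next. The other 4 were Ppp1r3g, a glycogen-targeting phosphatase subunit (0.422), Aqp8, a water channel (0.449), Rdh11, a retinol dehydrogenase (0.457), and Nfe2, a transcription factor (0.473). Probes of 6 of the 10 lie in displaced blocks, and 7 of the 10 were also among the nearest when the second HFC alone array was left out.

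**Figure D2:**
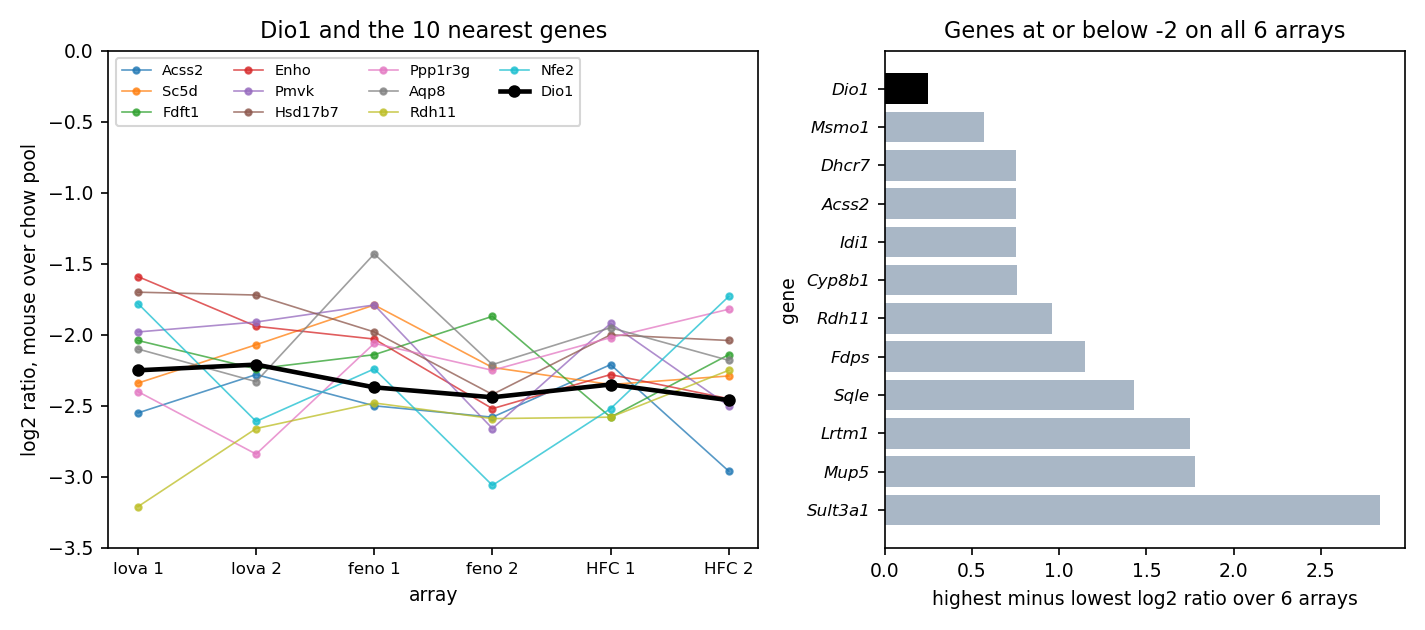
Left, log2 ratios of mouse over chow pool on the 6 arrays for Dio1 (black) and the 10 genes nearest to it, with displaced blocks put back. Right, the gap between the highest and the lowest array for the 12 named genes at or below -2 on all 6 arrays, with Dio1 the shortest bar at 0.25.

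Ttr was below the pool on every array, as were 5.79% of all features, and lowest in the fenofibrate mice. Its log2 ratio was -0.59 and -0.65 in the lovastatin mice, -1.31 and -1.28 in the fenofibrate mice, and -0.72 and, put back, -0.69 in the mice on HFC alone. The fenofibrate arrays did not overlap with the other 4, which lay close together. Both fenofibrate arrays lay below the other 4 for 10.9% of all features. Group means were -0.62 ± 0.0424 with lovastatin and -1.30 ± 0.0212 with fenofibrate (SD, n = 2 each), and -0.72 from the intact HFC alone array. Of the other hepatocyte markers 0 passed the dye-balanced limma test, which 0.56% of all features passed. The median of 6 measured of 8 listed was -0.25 and -0.57 with lovastatin, -0.51 and -0.98 with fenofibrate, and -0.50 and -0.16 on HFC alone. With fenofibrate 6 of the 6 had a mean below 0, against 4 of 6 with lovastatin and 4 of 6 on HFC alone, and their part in the Ttr result was not tested. Over all features the arm means had a median of -0.01 with fenofibrate, -0.01 with lovastatin and 0.01 on HFC alone.

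The other plasma carriers moved in different directions, and none of the 3 passed the threshold in any comparison. In the dye-balanced mean 0.56% of all features passed, and in the other comparisons 0% did. Serpina7, thyroxine-binding globulin, was at 0.87 and 0.62 in the lovastatin mice, 1.01 and 1.15 in the fenofibrate mice, and -0.12 and 0.38 on HFC alone. Both drug arms lay above the HFC alone arm, the opposite order to that of Ttr under fenofibrate. How many features showed this order was not counted. Rbp4, the retinol carrier that travels bound to Ttr, was at 0.35 and 0.30 with lovastatin, -0.76 and -0.48 with fenofibrate, and 0.34 and, put back, 0.47 on HFC alone. As for Ttr, the fenofibrate arrays were below all others, an order that 10.9% of all features showed. Fenofibrate minus HFC alone was 0.95 for Serpina7 (SE 0.289) and -0.96 for Rbp4 (SE 0.332), both at limma adjusted p = 1. Alb, albumin, a low-affinity carrier, was below 0 on all 6 arrays, at -1.36 and -0.64 with lovastatin, -0.63 and -0.80 with fenofibrate, and -0.47 and, put back, -0.15 on HFC alone.

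The receptor genes stayed close to the pool. Thra was at -0.03 and -0.48 in the lovastatin mice, 0.15 and -0.20 in the fenofibrate mice, and -0.32 and, put back, -0.35 on HFC alone. Only the first fenofibrate array was above 0, and the lovastatin arrays spanned most of the range. The fenofibrate arrays lay above both HFC alone values. Thrb was at 0.49 and 0.10 with lovastatin, -0.23 and 0.09 with fenofibrate, and -0.07 and 0.36 on HFC alone. Its values fell on both sides of 0, the HFC alone arrays overlapped with both drug arms, and the lovastatin arrays lay just above the fenofibrate arrays. For Thra and Thrb the share of all features with the same order of arms was not counted. The group means of both genes lay between -0.32 and 0.30, with SDs of 0.226 to 0.318 in arms of 2 arrays. Nr1d1, the clock repressor whose gene overlaps the end of Thra on the opposite strand, was at 1.09 and -0.34, 0.26 and 0.07, and -0.07 and, put back, -0.06 in the same order of arms. Which strand and which splice forms the Thra probe detects was not examined.

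The drug arms were compared with HFC alone on the same diet to ask whether either drug altered these genes. The pool cancels from these differences, but they are taken from the same 6 arrays. Dio1 was chosen with its shared low ratio on those arrays in view. A small difference between arms was partly set by that choice, so for Dio1 the comparison does not answer the question. None of the 4 genes passed the limma test in any of the 3 comparisons between arms, in which 0% of 19485, 19456 and 19459 features passed for lovastatin against HFC alone, fenofibrate against HFC alone and fenofibrate against lovastatin. At an unadjusted p under 0.05 there were 390 (2%), 559 (2.87%) and 1075 features (5.52%), and 0 of the 4 genes. For Dio1, lovastatin minus HFC alone was 0.18 (95% interval -0.41 to 0.76, limma adjusted p = 0.975). Fenofibrate minus HFC alone was 0.00 (95% interval -0.59 to 0.59, limma adjusted p = 1), so differences of up to 0.59 in either direction lie within the interval. Quantile normalization changed the Dio1 differences to 0.84 for lovastatin minus HFC alone, 0.33 for fenofibrate minus HFC alone and -0.51 for fenofibrate minus lovastatin (SE 0.448 each, limma adjusted p = 1, 0.915 and 0.782). For Ttr, fenofibrate minus HFC alone was -0.58 (95% interval -1.41 to 0.26, limma adjusted p = 1, from 1 HFC alone array), and -0.59 with the second array's block put back (95% interval -1.16 to -0.02, unadjusted p = 0.0447, limma adjusted p = 0.999). After quantile normalization it was -0.35. Ttr was also lower with fenofibrate than with lovastatin by the point estimate, at -0.68 (95% interval -1.36 to 0.01, unadjusted p = 0.0521, limma adjusted p = 0.701). With blocks put back that interval was -1.25 to -0.10 (unadjusted p = 0.0281, limma adjusted p = 0.653). The Thra and Thrb differences ranged from -0.37 to 0.30, and each of their intervals held 0.

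**Figure D3:**
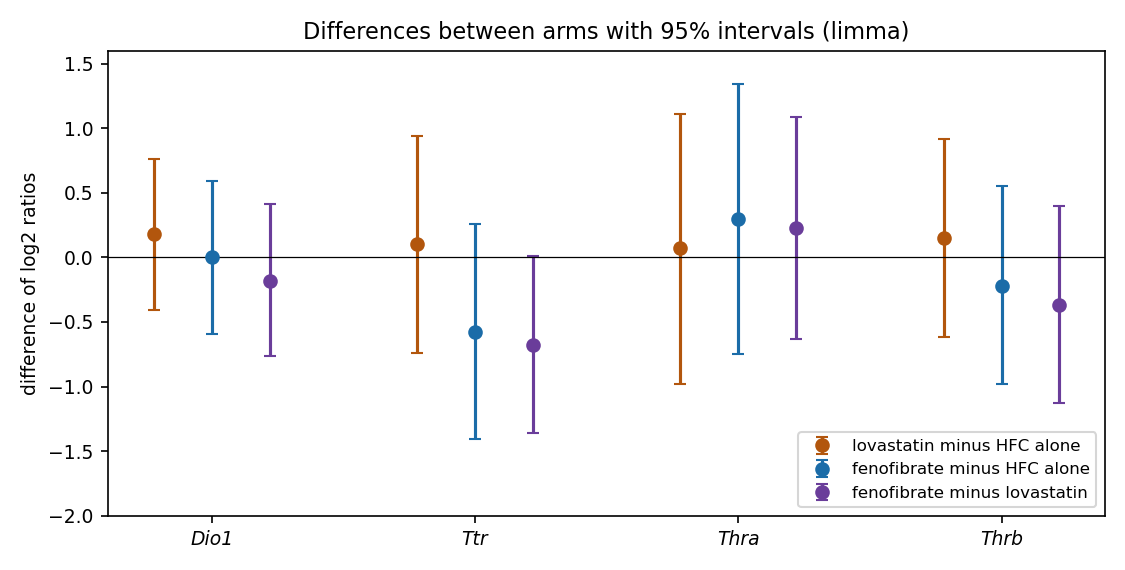
Differences of log2 ratios between arms for the 4 genes, with 95% intervals from limma over all 6 arrays, displaced spots left out. Ttr in fenofibrate against lovastatin mice (-0.68) lies farthest from 0, and all 12 intervals hold 0.

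Other genes of the pathway were taken from 9 role lists and the Thra neighbour Nr1d1, 106 genes besides the members, of which 91 were tested. These lists were chosen with earlier results of these data known, so their counts and medians are descriptions. Against the pool, in a mean that gives both dye orientations equal weight, 4 of the 91 fell and 0 rose by limma, while 0.56% of 19447 features passed, 0.391% falling and 0.17% rising. The median of the 91 was -0.07, against 0.01 over all features. With lovastatin, with fenofibrate and on HFC alone, 0 of the 91 passed against the pool by limma, as did 0% of all features, and 17, 21 and 11 of the 91 had an unadjusted p under 0.05, against 10.6%, 7.61% and 4.73% of all features. Between arms 0 of the 91 passed by limma, as did 0% of all features. For lovastatin against HFC alone, fenofibrate against HFC alone and fenofibrate against lovastatin, 3, 9 and 6 of the 91 had an unadjusted p under 0.05. Over all features these shares were 2%, 2.87% and 5.52%. The 4 calls depend on single arrays, and so do the calls over all features, so this is no trait of the listed genes. Leaving out an array also leaves an arm with 1 array. With the blocks put back 7 of the 91 passed, and over all features the count went from 109 to 189.

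**Figure D4:**
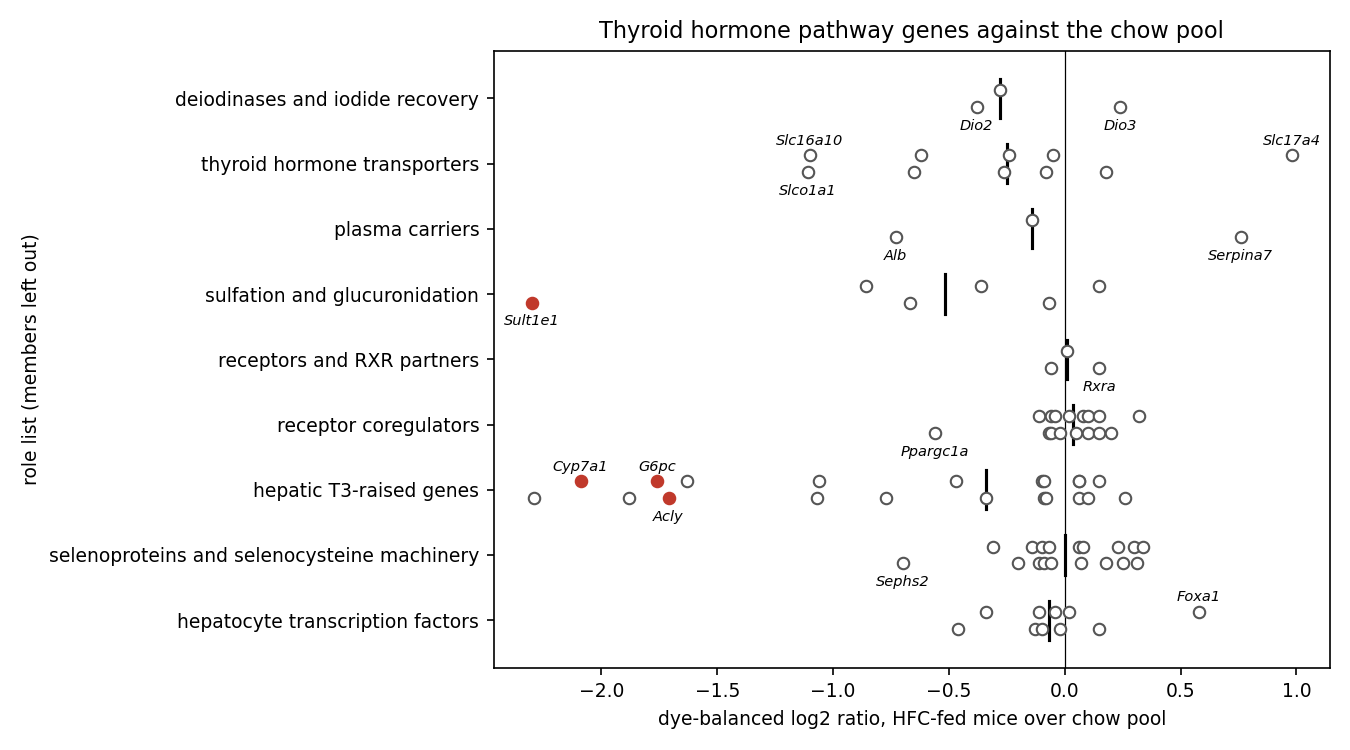
Dye-balanced log2 ratios of HFC-fed mice over the chow pool for the role-list genes, 1 point for each gene, with the list median as a bar. Filled red points passed the limma threshold: Sult1e1, Cyp7a1, Acly and G6pc, all below 0.

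Among deiodinases and iodide recovery, the other genes had ratios nearer to the pool than Dio1. Whether their signals in liver were above background could not be seen, since only ratios were used. Dio2, the type 2 enzyme that makes T3 in brain and brown fat, was at -0.95 and -0.05 with lovastatin, -0.75 and -0.24 with fenofibrate, and 0.33 and -0.41 on HFC alone. Dio3, the inactivating deiodinase, ranged from -0.07 to 1.47, with its highest value on the wide lovastatin array. Iyd, which recovers iodide from iodotyrosines, was below 0 on all 6 arrays with blocks put back, between -0.52 and -0.10. None of the 3 passed (limma adjusted p = 0.536 to 0.809, dye-balanced), while 0.56% of all features did.

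Of 10 transporters tested, 8 had a dye-balanced value below 0 and none passed. Their median was -0.25, against 0.01 over all features, of which 0.56% passed. Slc16a10, the T3 and aromatic amino acid transporter MCT10, was at -0.58 and -0.39 with lovastatin, -1.32 and -1.31 with fenofibrate, and -1.30 and, put back, -1.09 on HFC alone. Lovastatin mice were thus nearer to the pool than the other arms, and fenofibrate minus lovastatin was -0.83 (SE 0.262, limma adjusted p = 0.701). Slc17a4, an organic anion carrier that also takes up T3 and T4, was above 0 on all 6 arrays, at 0.74 and 0.88, 0.98 and 0.91, and 1.20 and, put back, 1.45, in the order lovastatin, fenofibrate and HFC alone. With blocks put back Slc16a10 fell (dye-balanced -1.08, limma adjusted p = 0.0197) and Slc17a4 rose (1.01, limma adjusted p = 0.0233). Without that step their limma adjusted p were 0.0703 and 0.0873. The bile acid and hormone carriers Slco1b2 and, with blocks put back, Slc10a1 were below 0 on all 6 arrays, with dye-balanced means of -0.62 and -0.65 (limma adjusted p = 0.112 and 0.4). Slco1a1, another organic anion transporter, varied from -2.63 to 0.16.

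Of 6 conjugating enzymes tested, 5 had a value below 0 and 1 fell. Their median was -0.51, against 0.01 over all features, of which 0.391% fell. Sult1e1, the oestrogen sulfotransferase, which also sulfates iodothyronines, was at -2.49 and -2.14 with lovastatin, -2.62 and -2.67 with fenofibrate, and -2.19 and -0.96 on HFC alone (dye-balanced -2.30, SE 0.196, limma adjusted p = 0.022). Apart from the second HFC alone array its ratios were of the size of those of Dio1. Sult1b1, which sulfates thyroid hormone in rodents, and Sult1a1 were below 0 on all 6 arrays and did not pass, with dye-balanced means of -0.86 and -0.67 (limma adjusted p = 0.113 and 0.119).

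RXR partners and receptor coregulators showed no calls in any comparison by limma, while 0.56% of all features passed in the dye-balanced mean. Rxra, the main hepatic RXR, had a dye-balanced mean of 0.15 (limma adjusted p = 0.824). Rxrb was at -0.91 and -0.50 with lovastatin, 0.45 and 0.06 with fenofibrate, and 0.27 and 0.16 on HFC alone. The lovastatin arrays alone were below 0, and lovastatin minus HFC alone was -0.92 (SE 0.289, limma adjusted p = 0.973). How common that pattern is among all features was not counted. The 16 coregulators had a median of 0.03, with Ncoa1, a coactivator, at 0.15 and Med1, a Mediator subunit, at 0.05. Ppargc1a, the coactivator PGC-1α, was below 0 on all 6 arrays with blocks put back, between -0.98 and -0.28 (limma adjusted p = 0.297).

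Of 21 genes listed as raised by T3 in liver, 15 had a dye-balanced value below 0, 3 fell and 0 rose. Their median was -0.34, against 0.01 over all features, of which 0.391% fell and 0.17% rose. The 3 were Cyp7a1, which starts bile acid synthesis (-2.09, SE 0.131, limma adjusted p = 0.0121), Acly, which makes cytosolic acetyl-CoA (-1.71, SE 0.133, limma adjusted p = 0.0207), and G6pc, which releases glucose (-1.76, SE 0.199, limma adjusted p = 0.0439). All 3 are known to respond to sterol, dietary fat or fasting signals too. The list was drawn up with earlier results of these data known, so its low median and its calls are descriptions. Thrsp, the lipogenic Spot 14 protein and a strongly T3-responsive gene, was at -2.39 and -1.20 with lovastatin, -1.93 and -2.39 with fenofibrate, and -1.27 and 0.45 on HFC alone. It did not pass (dye-balanced -1.63, limma adjusted p = 0.13), and its HFC alone arrays lay on both sides of 0. The list did not move as a block. Dye-balanced means near 0 were 0.10 for Me1, malic enzyme, -0.09 for Hr, a corepressor, and -0.09 for Klf9, a transcription factor (limma adjusted p = 0.817, 0.918 and 0.913).

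Selenoproteins as a group did not share the low ratio of Dio1. Of 18 genes for selenoproteins and for the insertion of selenocysteine, 0 passed against the pool by limma. Over all features 0.56% passed in the dye-balanced mean. In the dye-balanced mean 9 were below 0, and the median was 0.00, against 0.01 over all features. Selenop, the plasma selenium carrier made by liver, was at 0.16 and -0.18 with lovastatin, -0.23 and 0.20 with fenofibrate, and -0.31 and -0.15 on HFC alone. Sephs2, which makes the selenium donor for selenocysteine, was below 0 on all 6 arrays, from -1.81 on a fenofibrate array to -0.04 on a lovastatin array (limma adjusted p = 0.422).

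Hepatocyte transcription factors showed no calls, with 7 of 10 below 0 in the dye-balanced mean. Their median was -0.07, against 0.01 over all features, of which 0.56% passed. Hnf4a, the factor of the motif marked in the Dio1 window, was at -0.50 and -0.11 with lovastatin, -0.08 and -0.34 with fenofibrate, and -0.01 and 0.61 on HFC alone (dye-balanced -0.11, limma adjusted p = 0.834). Cebpb, a stress-responsive factor, was at -0.58 and -0.41 with lovastatin, -1.01 and -0.54 with fenofibrate, and 0.49 and 0.89 on HFC alone. Both drug arms lay below 0 and the HFC alone arm above it, with fenofibrate minus HFC alone at -1.47 (SE 0.301, unadjusted p = 0.00379, limma adjusted p = 1). The share of all features with such a split was not counted, so the split is no result about Cebpb. Markers of 7 other cell types or tissues, 34 measured of 39 listed, had list medians between -0.54 and 0.24 on the single arrays. Of these markers 0 passed the dye-balanced test by limma, which 0.56% of all features passed.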

How the data were processed

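Each array contributes 1 deposited ratio per spot, which the authors computed and which was taken to be log2. Scanner software, background correction, normalization, log base and direction were not given in the sources used here. Labelling used 0.5 µg of total RNA per the labels' protocols, and replicates are separate mice. Of 22575 spots, 726 had no value and 561 repeated unnamed controls were left out. Probes of a gene were averaged, giving 19517 features. On the second HFC array (105 rows by 215 columns), displaced spots and 47 genes spotted 10 times, whose single value mixes displaced spots, were set to missing, the repeated ones by a choice made after seeing the data. Rotations of 11, 22, 6 and 17 columns put the 4 displaced blocks back. Correlations with the mean of the other arrays, lovastatin replicate 1 left out, were 0.304 to 0.323 (next best up to 0.0455).

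Group means were fitted over all 6 arrays with limma 3.58.1 in R 4.3.3 (prior 2.37 degrees of freedom), with Benjamini-Hochberg adjustment over all features and a threshold of 0.05. The fit was also run on simulated data with the same spread on every array, which did not cover the wider lovastatin replicate 1 array. The dye-balanced mean weights lovastatin and HFC by 0.25 each and fenofibrate by 0.5. A ratio against 0 leaves out the spread between chow mice, and precision is limited by 2 arrays per arm. Tables and plots used pandas 2.3.3, matplotlib 3.10.9, numpy 2.4.6 and Python 3.11.15.

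Members, role lists and tests were chosen with earlier results of these data known. Named were the members, per role list up to 3 genes of smallest dye-balanced p and any that passed, a fixed set of pathway genes, and the 10 genes nearest to Dio1. Alternatives were other treatments of the displaced spots, median centring, quantile normalization, single probes, a robust prior, a replicate block, the compared arrays alone and leaving out each array. Of the 106 listed genes 15 had no usable probe annotated with their symbol alone and were not analysed here. Probes annotated with several symbols were kept as unnamed features.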

Additional observations from a re-analysis of the deposited data

Results flagged for a closer look

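In 10 comparisons of named genes, counted where both arrays of each arm were measured without put-back values, every array of an arm lay above 0 and every array of the other below 0. None of these differences passed the limma test. The share of all features with such a split is not given, so the count is no result about these genes. Rbp4 was at -0.76 and -0.48 with fenofibrate, against 0.30 and 0.35 with lovastatin (difference -0.95, limma adjusted p = 0.701). Rxrg, an RXR partner, was at 0.07 and 0.21 with fenofibrate, against -0.34 and -0.24 with lovastatin (difference 0.43, limma adjusted p = 0.701). Rxrb differed by -0.92 for lovastatin minus HFC alone (limma adjusted p = 0.973) and by 0.96 for fenofibrate minus lovastatin (limma adjusted p = 0.701). Ncoa4, a ferritin receptor once named as a receptor coactivator, was at 0.04 and 0.73 with fenofibrate, against -0.34 and -0.04 on HFC alone (difference 0.58, limma adjusted p = 1). Cebpb differed by -1.19 for lovastatin minus HFC alone (limma adjusted p = 0.973) and by -1.47 for fenofibrate minus HFC alone (limma adjusted p = 1). Me1 was at -0.62 and -0.29 with lovastatin, against 0.04 and 0.39 on HFC alone (difference -0.67, limma adjusted p = 0.973). With fenofibrate Me1 was at 0.28 and 0.36, and fenofibrate minus lovastatin was 0.77 (limma adjusted p = 0.701). Hr was at 0.21 and 0.33 with fenofibrate, against -1.70 and -0.05 with lovastatin (difference 1.15, limma adjusted p = 0.701), with the lowest value on the wide lovastatin array.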

How the results depend on the processing

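Quantile normalization moved the Dio1 mean to -1.85 with lovastatin and -2.69 on HFC alone, and the Ttr mean to -1.38 with fenofibrate and -1.04 on HFC alone. The cause was not tested. Median centring, single probes, put-back blocks and values as deposited moved no member's mean by more than the replicate SD or, for means from 1 array, the fitted SD. As deposited, the displaced spots would put Ttr at -0.48 on HFC alone. With 2 arrays an arm, leaving out either leaves the value of the other, which says nothing about stability. It gave Dio1 -2.25 to -2.21 with lovastatin, -2.44 to -2.37 with fenofibrate and -2.46 to -2.35 on HFC alone, and Ttr -0.65 to -0.59, -1.31 to -1.28 and -0.72. None of the 12 differences of members between arms passed under any setting, and the lowest limma adjusted p among them was 0.207, for Ttr in fenofibrate against lovastatin mice.

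A fit on the compared arrays alone gives no dye-balanced value, and where an arm keeps 1 array it is assumed to vary like the other arms. Of the role-list genes, 7 passed in the dye-balanced mean and 1 with fenofibrate against the pool with blocks put back, and 0 in the dye-balanced mean with a replicate block. Leaving out arrays gave 0 to 16 in the dye-balanced mean, 0 to 14 with lovastatin, 0 to 1 with fenofibrate, 0 to 1 for lovastatin minus HFC alone and 0 to 3 for fenofibrate minus lovastatin. The highest of each came without lovastatin replicate 2, and for fenofibrate also without lovastatin replicate 1. Over all features 109 passed in the dye-balanced mean, against 67 as deposited, 189 put back, 186 quantile normalized, 0 with a replicate block and 0 to 839 without an array. Against the pool, lovastatin had 2 put back, 4 quantile normalized and 0 to 3804 without an array, fenofibrate 9 as deposited, 32 put back, 13 quantile normalized and 0 to 23, and HFC alone 3 put back, 9 quantile normalized and 0 to 6. Without an array, lovastatin minus HFC alone had 0 to 1190 and fenofibrate minus lovastatin 0 to 2044. The replicate numbers share no origin in the labels, and deviations of same-numbered arrays had correlations from -0.0206 to 0.0311, so the block was not used.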

Other observations

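Igfbp1, Pck1 and Fasn, listed as T3-raised and named after their values were seen, had dye-balanced means of -2.29, -1.07 and -1.88. None of their differences between arms passed the limma test. Igfbp1, an insulin-like growth factor binding protein, was at -2.67 and -4.05 with lovastatin, -1.95 and -2.92 with fenofibrate, and -0.92 and, put back, -2.09 on HFC alone. It did not pass with displaced spots left out (limma adjusted p = 0.0908), and with blocks put back it fell in the dye-balanced mean (-2.43, SE 0.286, limma adjusted p = 0.0328). Pck1, the gluconeogenic enzyme, was at -0.61 and -1.99 with lovastatin, -2.22 and -1.18 with fenofibrate, and 0.41 and, put back, 0.64 on HFC alone. Fenofibrate minus HFC alone was -2.11 for Pck1 from 1 HFC alone array (SE 0.78, unadjusted p = 0.049, limma adjusted p = 1). Fasn, fatty acid synthase, was below 0 on all 6 arrays with blocks put back, and did not pass (limma adjusted p = 0.124), with its HFC alone arrays at -2.01 and, put back, -0.35.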
